A study of Mus musculus with 6 samples.

Results

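Insulin and the insulin-like growth factors (IGFs) signal through a small set of proteins, and 10 mouse genes for them were followed here in endothelial cells (ECs) of lungs that carried breast cancer metastases. The genes encode the ligand IGF1 (Igf1), the insulin and IGF1 receptors (Insr and Igf1r), the adaptors that the active receptors phosphorylate (Irs1 and Irs2) and 5 secreted IGF-binding proteins (Igfbp3, Igfbp4, Igfbp5, Igfbp6 and Igfbp7). They were taken by name, and every probe set that the platform annotation gives to 1 of them alone was used, which made 28 of the 45101 probe sets on the array and 10 of 18194 genes. The genes were picked with the result of the same comparison already known, so the differences between groups below describe these arrays and are no independent test.

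The ECs came from NSG mice, an immunodeficient strain, aged 6 to 8 weeks, all of which had received MDA231-LM2 cells into the blood, which are a subline of MDA-MB-231 human breast cancer cells with a high capacity to colonize lung. The injected cells carried either a control hairpin RNA (shControl, 3 samples) or one against TNC, the gene for the matrix protein tenascin C (shTNC, 3 samples). The paper reports less lung colonization after TNC knockdown, so metastatic load may differ between the groups as well. The part of metastatic load in the values below was not tested. Lungs were taken on day 20, and ECs were sorted as CD31-positive cells that lacked CD45, CD11b, EpCAM, CD140a, CD140b and the GFP of the cancer cells. The knockdown is of a human gene in cells that the sort removes, so no probe set on these mouse arrays checks it, and a host without mature lymphocytes limits both groups as a model. The labels call the samples biological replicates, but the number of mice behind each was not given in the sources used here.

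When insulin or an IGF binds its receptor tyrosine kinase, the receptor phosphorylates IRS adaptors, which recruit PI3-kinase and so activate AKT. AKT keeps the FOXO transcription factors out of the nucleus, and FOXO factors can in turn raise the transcription of Insr and the IRS genes in several tissues. IGF-binding proteins hold IGFs outside the cell and either limit or prolong their action, and several of them, Igfbp7 among them, are abundant products of blood vessels.

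The first principal component of the arrays held 36.6% of the variance. It put shControl replicate 2 at -43.6, the other shControl arrays at -11.1 and 0.25 and the shTNC arrays between 16.1 and 21.1, so shControl replicate 2 stood apart. It was also the highest shControl array for Irs1, Igf1 and Igfbp6. Without it the difference was 1.02 for Irs1, -0.29 for Igf1 and 0.48 for Igfbp6. Of the cell cycle genes measured, 10 of 14 were lower at an unadjusted p under 0.05, where 7.12% of all genes were, with a median difference of -0.63 (log2, shTNC minus shControl) and mean levels of 10.48 to 10.90 in shControl and 10.12 to 10.19 in shTNC. The part of cell division in the values of the 10 genes was not tested.

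Irs1 stood out among the 10 genes, with a level 1.87-fold higher in ECs from shTNC lungs. The other adaptor, Irs2, differed by only -0.03 on the log2 scale. Igf1 and Igfbp5 had lower values and Insr and Igfbp4 higher values at the probe set with the highest mean, in each case with groups that did not overlap, but other probe sets of Insr and Igfbp4 had the opposite sign. All 5 probe sets of Igf1r were lower, by 0.25 or less. In limma, 0 of the 28 probe sets passed an adjusted p of 0.05, as did 0 of all 45101 (0.0%), where 9 passed with an intensity trend and robust eBayes. At an unadjusted p under 0.05 there were 2842 lower and 3004 higher among all probe sets, and the smallest adjusted p was 0.18 over the 28 and 0.126 over the array.

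Levels below are log2 values as deposited, each difference is shTNC minus shControl with limma's standard error (SE, n = 3 per group), and a probe set is called near background when its mean lies under 7.48, a level set by olfactory receptor probe sets. By that level 26 of the 28 probe sets were above background, where 67.1% of all probe sets were. Of the 28, 18 were lower and 10 higher in shTNC. At an unadjusted p under 0.05 there were 3 lower and 5 higher, where all probe sets gave 6.3% lower and 6.66% higher. The groups did not overlap for 8 lower and 6 higher probe sets, where all probe sets gave 10.5% and 8.92%, or 19.4% in either direction. With 1 probe set per gene, the one with the highest mean, 5 genes were lower and 5 higher, where 41.7% of all genes were higher. The median difference was -0.0014 against -0.030 over all 18194 genes. Of those 10, 2 lower and 2 higher had an unadjusted p under 0.05 (7.12% and 4.54% of all genes), and 2 lower and 3 higher did not overlap (12.4% and 7.36%).

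**Figure D1:**
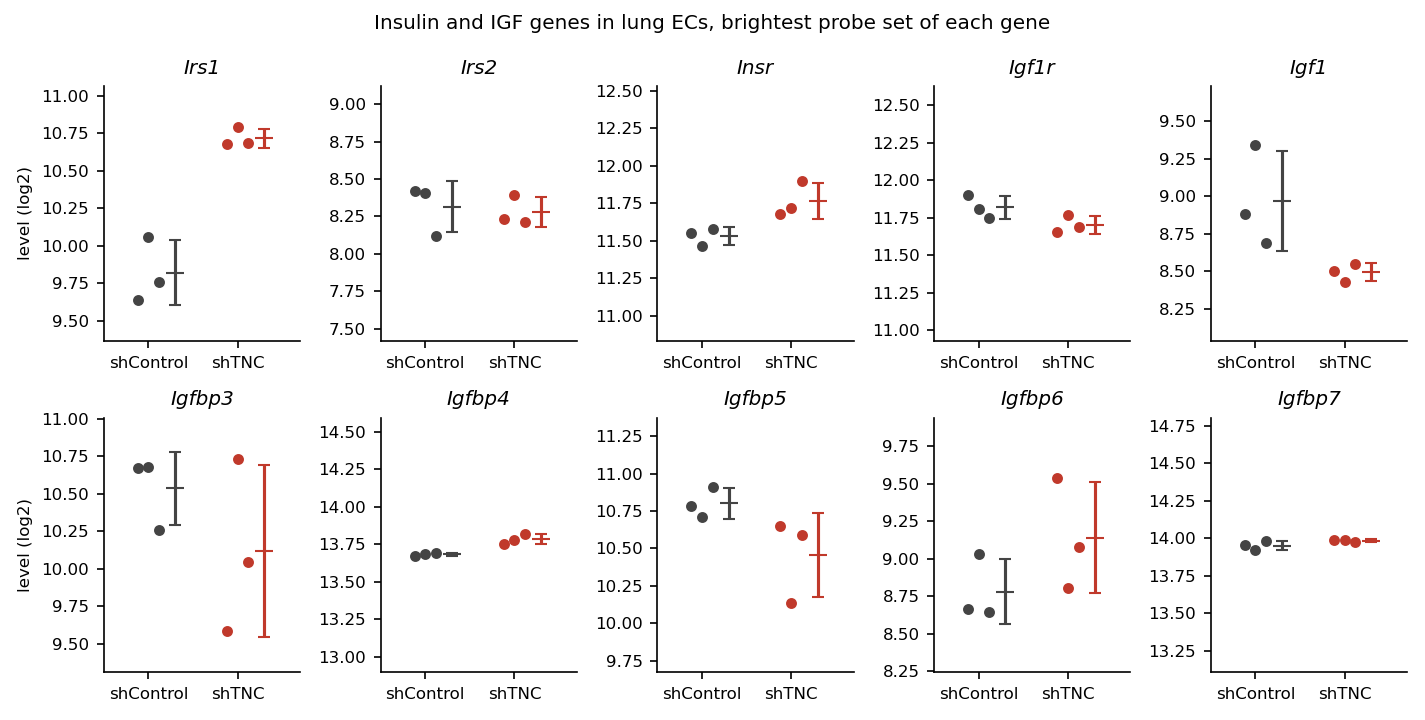
Level (log2, y axis) of the 10 genes on each of the 3 shControl and 3 shTNC arrays at the probe set with the highest mean. Points are arrays, the horizontal line is the group mean and the bar 1 SD to each side, and every panel spans the same log2 range. The Irs1 points of the 2 groups are 0.62 apart at their nearest, while those of Irs2, Igf1r, Igfbp3, Igfbp6 and Igfbp7 overlap.

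Irs1 encodes the first-described insulin receptor substrate, which couples the receptors to PI3-kinase, and has 1 probe set (1423104_at). Its level was 9.64, 10.06 and 9.76 on the shControl arrays. On the shTNC arrays it was 10.68, 10.79 and 10.68. Every shTNC array was above every shControl array, and the shTNC arrays lay close together (SD 0.063) while the shControl arrays were spread more widely (SD 0.22), with replicate 2 the highest of them. The group means were 9.82 and 10.72, a difference of 0.90 ± 0.12. By its unadjusted p Irs1 ranked 12 among all 45101 probe sets, with an adjusted p of 0.18 in limma. The difference lay between 0.81 and 1.02 under 12 alternative settings, and the adjusted p between 0.049 and 0.41. It passed 0.05 only with an intensity trend and robust variance estimates. A looser level asks for a log2 difference of more than 0.75, with p-values below 0.05 before and below 0.25 after adjustment. Irs1 met it, as did 82 probe sets in all (0.182%), and the difference of no other of the 28 reached 0.75.

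Irs2 encodes a related adaptor known for its part in the insulin responses of liver and endothelium, and also has 1 probe set (1443969_at). Its level was 8.42, 8.41 and 8.12 in shControl and 8.23, 8.40 and 8.21 in shTNC. The groups overlapped, with a difference of -0.03 ± 0.11. With shControl replicate 1 left out the difference was 0.017, and with shControl replicate 2 left out it was 0.011, both of the opposite sign. Neither adaptor has a further probe set to set beside these values.

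Both adaptor genes lie on the minus strand of the RefSeq assembly GRCm38.p6, Irs1 at chr1:82233105-82291439 and Irs2 at chr8:10984681-11008929. The 250 bases before their start sites are printed because the pair differs in the readout and because Irs1 carries the largest difference of the 10 genes. They span chr1:82291440-82291689 for Irs1 and chr8:11008930-11009179 for Irs2 and are given 5′ to 3′ on the minus strand, with capitals marking the palindromic E-box CACGTG.
Irs1: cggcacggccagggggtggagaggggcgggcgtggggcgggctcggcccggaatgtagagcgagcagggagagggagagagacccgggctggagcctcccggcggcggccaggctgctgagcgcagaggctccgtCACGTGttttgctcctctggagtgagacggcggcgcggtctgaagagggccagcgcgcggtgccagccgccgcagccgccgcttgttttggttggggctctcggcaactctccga
Irs2: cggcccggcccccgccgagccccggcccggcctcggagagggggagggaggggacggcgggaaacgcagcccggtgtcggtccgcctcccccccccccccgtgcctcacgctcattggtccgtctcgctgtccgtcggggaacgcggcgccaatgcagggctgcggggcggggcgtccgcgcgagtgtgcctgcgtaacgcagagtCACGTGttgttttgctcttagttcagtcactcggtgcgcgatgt

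Both windows are rich in G and C, at 72.4% for Irs1 and 72.8% for Irs2 against a median of 52.4% over 32851 RefSeq promoters, and hold 28 and 34 CpG dinucleotides against a median of 6. The E-box starts 115 bases before the start site of Irs1 and 44 bases before that of Irs2. Of the 10 genes, 9 had a promoter in the RefSeq table, all except Insr. CACGTG was in 2 of these 9 windows and in 6.02% of all promoters. The FOXO motif GTAAACA and the cyclic AMP response element TGACGTCA, read on both strands, were in 0 of the 9 and in 3.17% and 1.55% of all promoters. The motifs do not overlap each other, and a match of letters is only a description of the window.

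Insr encodes the insulin receptor, which ECs use both to respond to insulin and to carry it across the vessel wall, and it lies at chr8:3150922-3279649 on GRCm38.p6. At its brightest probe set (1434446_at) the level was 11.55, 11.46 and 11.58 in shControl and 11.68, 11.72 and 11.90 in shTNC. The difference was 0.23 ± 0.09, and every shTNC array was above every shControl array. A second probe set (1450225_at) gave 0.20 ± 0.08, also without overlap. The third (1421380_at) had the opposite order, with 9.97, 9.89 and 9.95 in shControl and 9.64, 9.88 and 9.79 in shTNC, a difference of -0.17 ± 0.09. The limma adjusted p-values of the 3 probe sets were 0.36, 0.37 and 0.48. Within each array, the brightest minus the third probe set was between 1.57 and 1.63 in shControl and between 1.84 and 2.11 in shTNC, a difference between groups of 0.40 in this quantity. This pair was chosen as the Insr probe sets with the highest and lowest difference, so the quantity is a description. Over 6591 genes with several probe sets above background, the 95th percentile of such a gap was 0.53. Averaged over its probe sets Insr differed by 0.09 ± 0.08, and the probe sets give no single direction for the gene.

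Igf1r encodes the IGF1 receptor, a receptor tyrosine kinase closely related to the insulin receptor, and lies at chr7:67952257-68233668. Its 5 probe sets were lower in shTNC, with differences from -0.12 to -0.25, and the groups did not overlap for 3 of them. The probe set with the largest difference (1426565_at) had levels of 11.06, 11.20 and 11.01 in shControl and 10.97, 10.92 and 10.64 in shTNC, a difference of -0.25 ± 0.11 with a limma adjusted p of 0.40. The groups did not overlap, and shTNC replicate 3 was the lowest array. At 1452108_at the shControl arrays read 11.36, 11.35 and 11.37 and the shTNC arrays 11.26, 11.25 and 11.08, again with replicate 3 lowest. The brightest probe set (1428967_at) had overlapping groups and a difference of -0.12 ± 0.09. The probe sets measure transcripts of 1 gene on the same arrays and are not replicates of each other. Averaged over them, the difference was -0.17 ± 0.08 (limma adjusted p of 0.42).

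Igf1 encodes the circulating and locally made growth factor IGF1 and lies at chr10:87858265-87937047. In lung it is best known as a product of macrophages and mesenchymal cells. At its brightest probe set (1452014_a_at) the level was 8.88, 9.34 and 8.69 in shControl and 8.50, 8.43 and 8.55 in shTNC. The shTNC arrays lay together below all shControl arrays, among which replicate 2 was the highest. The difference was -0.48 ± 0.16, a ratio of 0.718, with a limma adjusted p of 0.30. It ranged from -0.62 without shControl replicate 3 to -0.29 without shControl replicate 2. A second probe set (1437401_at) had overlapping groups and a difference of -0.21 ± 0.18. The last 2 were near background, with differences of -0.12 ± 0.23 and 0.024 ± 0.13, and averaged over all 4 probe sets Igf1 differed by -0.20 ± 0.12.

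Markers of macrophages and monocytes, cells that the sort was set to remove, stood beside the Igf1 value. Of 14 such markers 11 were above background, where 13436 of all 18194 genes were. Among the 11 were Ptprc, which encodes the CD45 used in the sort, Csf1r and Cd68, while Itgam, Adgre1 and Ccr2 were near background. The mean level of the 14 markers was 8.83, 8.69 and 8.71 in shControl and 8.69, 8.41 and 8.74 in shTNC, with overlapping ranges. At the same time 11 of 14 were lower in shTNC and 3 higher, where 41.7% of all genes were higher. The median difference was -0.12, and 4 were lower at an unadjusted p under 0.05 (7.12% of all genes were lower at that level). These were Mrc1, the mannose receptor, at -0.62 ± 0.14, Chil3 at -0.69 ± 0.21, Cd14 at -0.32 ± 0.10 and Itgax at -0.28 ± 0.11, named after their values were seen. Ptprc at 0.32 ± 0.25, C1qb at 0.29 ± 0.31 and Ccr2 at 0.40 ± 0.29 had the opposite sign, with overlapping groups. The other probe set of Ptprc did not share the sign of its brightest. In sorted bulk RNA, fewer cells of a type and less RNA per cell cannot be told apart, and the part of these cells in the Igf1 value was not tested. The mean of 12 fibroblast markers was lowest on shControl replicate 3, at 9.63, and highest on shTNC replicate 3, at 10.46, and their median difference of 0.25 had the opposite sign to that of Igf1. Of these 12, 8 were higher, where 41.7% of all genes were, and 2 were higher at an unadjusted p under 0.05. Markers of pericytes and smooth muscle had a median difference of 0.13, with 6 of 10 higher and 2 of 10 at that p. Of all genes 4.54% were higher at that p. The ECs themselves were well marked, as the mean of 12 endothelial markers, all above background, was 13.45 to 13.50 in shControl and 13.44 to 13.48 in shTNC. Of 9 markers of epithelial cells, which the EpCAM gate was set to remove, 8 were above background, where 13436 of all 18194 genes were. Epcam itself was just above it, with a mean of 7.67. The mean of the 9 markers was 8.6 to 9.5 in shControl and 8.5 to 9.8 in shTNC. The brightest, Sftpc, read 13.01, 12.95 and 13.41 in shControl and 13.16, 12.09 and 13.46 in shTNC.

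**Figure D2:**
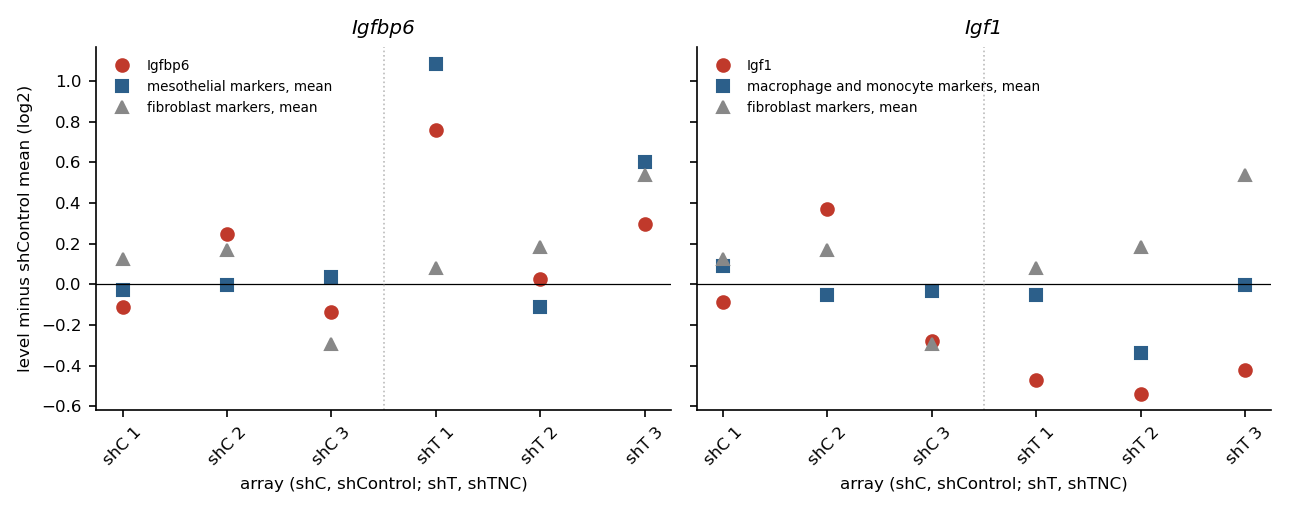
Level minus the shControl mean (log2, y axis) on each array, for Igfbp6 beside the means of mesothelial and fibroblast markers (left) and for Igf1 beside the means of macrophage and monocyte and of fibroblast markers (right). Igfbp6 and the mesothelial mean are both highest on shTNC replicate 1, at 9.54 and 8.84 before the shControl mean is taken off, and the macrophage mean is lowest on shTNC replicate 2.

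Igfbp3 encodes the main IGF carrier of blood plasma and lies at chr11:7206086-7215498. Its brightest probe set (1423062_at) read 10.67, 10.68 and 10.26 in shControl and 9.59, 10.73 and 10.04 in shTNC. The groups overlapped, because shTNC replicate 2 was the highest of all 6 arrays and shTNC replicate 1 the lowest. The difference was -0.42 ± 0.26, and it ranged from -0.72 without shTNC replicate 2 to -0.15 without shTNC replicate 1. The second probe set (1458268_s_at) gave -0.40 ± 0.16 with a limma adjusted p of 0.36, also with overlapping groups. Both probe sets had shTNC replicate 1 as the lowest array and gave nearly the same mean difference.

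Igfbp5, at chr1:72858065-72874865, encodes a binding protein that attaches to extracellular matrix. At its brightest probe set (1452114_s_at) the level was 10.78, 10.71 and 10.91 in shControl and 10.65, 10.13 and 10.59 in shTNC. The groups did not overlap, and shTNC replicate 2 was the lowest array by a wide margin. The difference was -0.34 ± 0.14 with a limma adjusted p of 0.37. The second probe set (1422313_a_at) had 10.33, 10.56 and 10.31 in shControl and 10.41, 9.55 and 10.09 in shTNC, a difference of -0.39 ± 0.20. Here the groups overlapped, since shTNC replicate 1 was above 2 of the shControl arrays. Without shTNC replicate 2 the differences of the 2 probe sets were -0.18 and -0.15, so that array set a large part of both values.

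Igfbp4 encodes a binding protein that inhibits IGF action until proteases cleave it, and it lies at chr11:99040005-99052655. All 6 of its probe sets were far above background, but they did not give 1 direction. The probe set 1437406_x_at had levels of 12.08, 12.21 and 12.08 in shControl and 12.52, 12.57 and 12.61 in shTNC, a difference of 0.44 ± 0.09 and a limma adjusted p of 0.19. The probe set 1437405_a_at, designed from the same source sequence, had 13.02, 13.20 and 13.12 in shControl and 13.37, 13.39 and 13.37 in shTNC, a difference of 0.26 ± 0.09. For both, all shTNC arrays were above all shControl arrays. In contrast, 1421991_a_at had 11.45, 11.65 and 11.55 in shControl and 11.41, 11.33 and 11.34 in shTNC, a difference of -0.19 ± 0.09 without overlap. The other 3 lay between, at 0.10 ± 0.08 (1423756_s_at, the brightest, without overlap), 0.03 ± 0.09 (1423757_x_at) and -0.05 ± 0.09 (1421992_a_at).

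The gap between the highest and the lowest difference of an Igfbp4 probe set was 0.63. Over 6591 genes with several probe sets above background, the median of that gap was 0.19 and the 95th percentile 0.53, and 2.31% of genes had a gap at least as large. More probe sets give wider gaps, and among the 223 genes with 6 or more the share was 12.1%. On each array, 1437406_x_at minus 1421991_a_at was 0.625, 0.565 and 0.534 in shControl and 1.108, 1.238 and 1.272 in shTNC. The mean of this quantity was 0.575 ± 0.046 (SD) in shControl and 1.21 ± 0.087 in shTNC, and the groups were far apart. It was chosen from the probe sets with the highest and lowest difference, so it is given as a description. Averaged over the 6 probe sets, Igfbp4 differed by 0.10 ± 0.07.

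**Figure D3:**
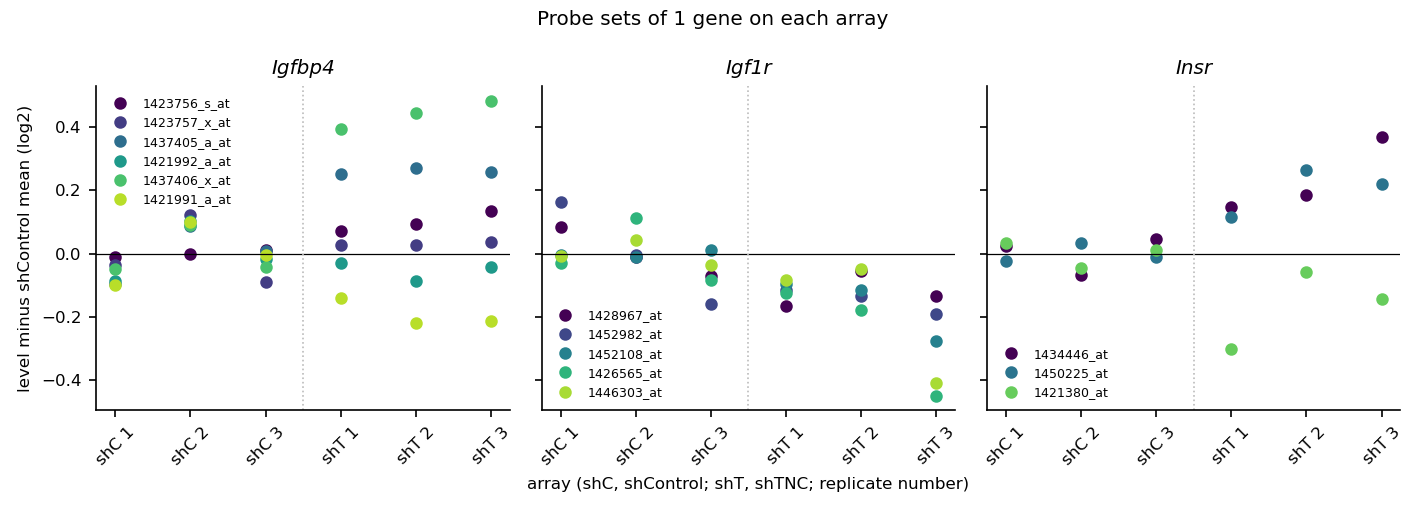
Level minus that probe set's own shControl mean (log2, y axis) on each of the 6 arrays for the probe sets of Igfbp4, Igf1r and Insr, with 1 colour per probe set. The Igfbp4 and Insr probe sets part in opposite directions on all 3 shTNC arrays, whereas those of Igf1r all lie below 0 there.

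Igfbp6, at chr15:102144186-102149512, encodes a binding protein with a preference for IGF2. Its 1 probe set (1417933_at) read 8.66, 9.03 and 8.64 in shControl and 9.54, 8.80 and 9.08 in shTNC. The groups overlapped, with shTNC replicate 1 the highest array and shTNC replicate 2 below shControl replicate 2. The difference was 0.36 ± 0.19 with a limma adjusted p of 0.46, and it ranged from 0.16 without shTNC replicate 1 to 0.53 without shTNC replicate 2. Mesothelial markers, which mark the cell layer over the lung surface that a CD31-positive gate would leave out, were also highest on shTNC replicate 1. Their mean level was 7.73, 7.75 and 7.79 in shControl and 8.84, 7.64 and 8.36 in shTNC, the same order of the shTNC arrays as for Igfbp6 but another order of the shControl arrays, of which replicate 3 was highest for the markers and lowest for Igfbp6. Of 7 such markers 4 were above background, where 13436 of all 18194 genes were, and Wt1, Lrrn4 and Bnc1 were near it. Of the 7, 6 were higher, with a median difference of 0.73, where 41.7% of all genes were higher. At an unadjusted p under 0.05 there was 1 higher, where 4.54% of all genes were. The part of these cells in the Igfbp6 value was not tested.

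Igfbp7, at chr5:77349240-77408045, encodes a binding protein that ECs secrete into their matrix and that has low affinity for IGFs. Its brightest probe set (1423584_at) read 13.95, 13.92 and 13.98 in shControl and 13.99, 13.99 and 13.97 in shTNC. The groups overlapped within a range of less than 0.1, with a difference of 0.03 ± 0.08. At 1437804_at the levels were 12.60, 12.60 and 12.56 in shControl and 12.49, 12.35 and 12.41 in shTNC, a difference of -0.17 ± 0.08 without overlap. The third (1423585_at) gave -0.06 ± 0.09. All 3 probe sets were above background, and averaged over them Igfbp7 differed by -0.07 ± 0.07.

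**Figure D4:**
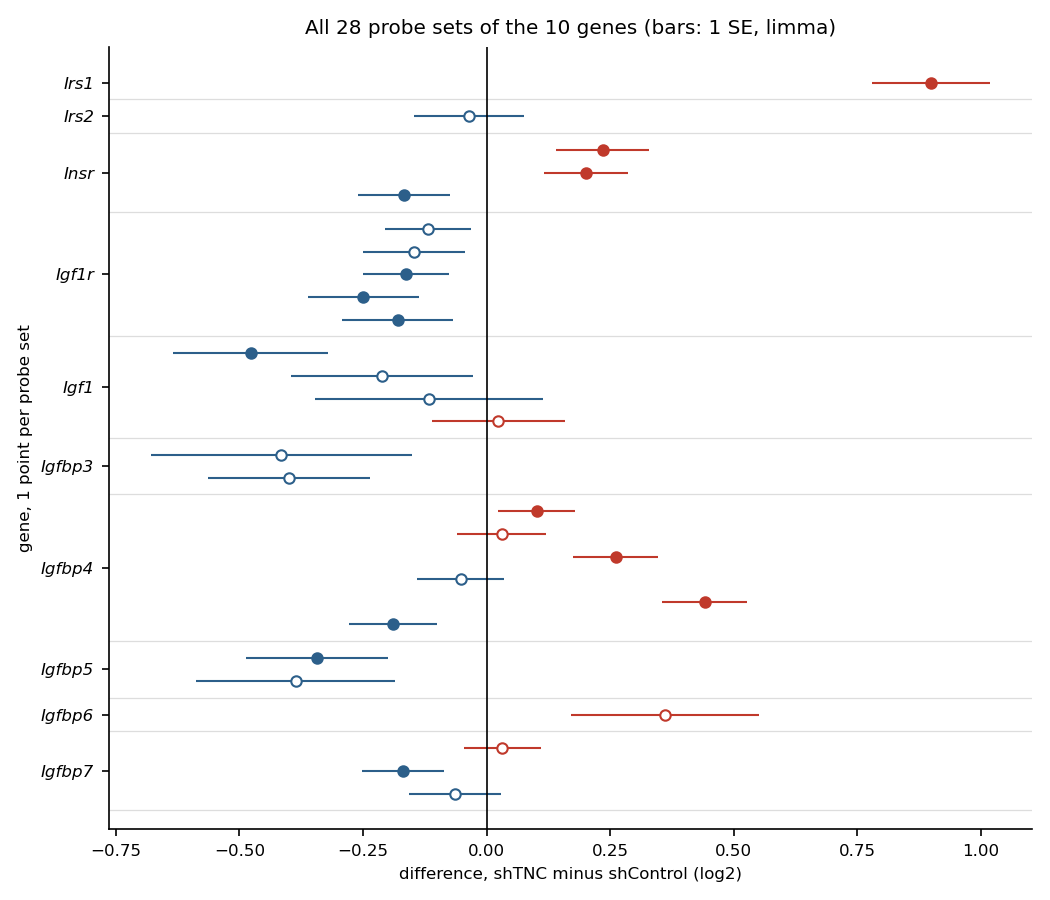
Difference, shTNC minus shControl (log2, x axis), of all 28 probe sets of the 10 genes, ordered within a gene from the highest mean down. Points are estimates and bars 1 SE from limma, with red for higher and blue for lower values in shTNC and filled points where the 2 groups did not overlap. Irs1 lies apart at 0.90, the 5 Igf1r probe sets lie on 1 side of 0, and those of Insr and Igfbp4 lie on both.

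The other genes of the pathway were read from a list of 72, of which 67 matched a gene with a probe set. Above background were 63 of them, where 13436 of all 18194 genes were. Of the 67, 34 were lower and 33 higher in shTNC, where 41.7% of all genes were higher, with a median difference of -0.00024. At an unadjusted p under 0.05 in limma, 1 was lower and 5 higher, where 7.12% and 4.54% of all genes were, and 0 passed an adjusted p of 0.05. The groups did not overlap for 4 lower and 6 higher genes, where 12.4% and 7.36% of all genes did not. Read over all 151 probe sets of these genes, 67 were lower and 84 higher with a median of 0.042, and 2 lower and 17 higher had an unadjusted p under 0.05, where all probe sets of the array gave 6.3% and 6.66%. The groups did not overlap for 8 lower and 18 higher of them, where all gave 10.5% and 8.92%, so the count of higher values depends on the probe sets read.

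Among other ligands, Igf2, the fetal growth factor that also binds the insulin receptor, read 8.63, 8.51 and 9.07 in shControl and 9.01, 9.23 and 9.41 in shTNC. The groups overlapped by a narrow margin, with a difference of 0.48 ± 0.16 and a limma adjusted p of 0.30. A second Igf2 probe set (1415931_at) gave 0.84 ± 0.20 without overlap, with 7.44, 7.22 and 8.02 in shControl and 8.20, 8.54 and 8.47 in shTNC. So Igf2 and Igf1 had opposite signs at the probe sets above background. Ins2, a mouse insulin gene, differed by -0.23 ± 0.13. Igf2r, the receptor that clears IGF2, differed by -0.23 ± 0.12 at one probe set and by 0.00029 ± 0.10 at the other, and the insulin receptor-related receptor Insrr by -0.11 ± 0.10. The groups overlapped for Ins2, Igf2r and Insrr.

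Of 8 further adaptors 6 were lower and 2 higher, where 41.7% of all genes were higher. Sh2b2, an adaptor of the insulin receptor, had the smallest p. It read 10.03, 10.26 and 10.21 in shControl and 9.92, 9.95 and 9.96 in shTNC, a difference of -0.22 ± 0.09 without overlap. Its second probe set gave -0.18 ± 0.09, also without overlap. Shc1, Irs4 and Sh2b1 followed with differences of -0.13, -0.07 and 0.06 and overlapping groups. Of 10 inhibitors 7 were higher, where 41.7% of all genes were. Grb14, a pseudosubstrate inhibitor of the insulin receptor kinase, read 10.40, 10.55 and 10.34 in shControl and 10.81, 10.77 and 10.77 in shTNC, a difference of 0.35 ± 0.09. Its limma adjusted p was 0.24, the smallest of the 67 genes at their brightest probe sets, and its other probe set was near background at -0.0064 ± 0.11. Over all probe sets of the list, 1 each of Sesn1, Foxo1 and Igf2 had a smaller adjusted p. The AKT phosphatase Phlpp1 differed by 0.20 ± 0.09 without overlap, and Phlpp2 by 0.28 ± 0.15 and Socs1 by -0.15 ± 0.11 with overlap. Of 9 further binding proteins, partners and proteases 6 were lower and 3 higher, where 41.7% of all genes were higher, and all 9 had overlapping groups. Those with the smallest p above background were Igfbpl1 (-0.22 ± 0.12), Htra1 (0.27 ± 0.22), Igfbp2 (0.18 ± 0.17) and Stc1 (0.21 ± 0.25).

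Of 10 PI3-kinase and AKT genes, 7 were lower and 3 higher with a median of -0.063, where 41.7% of all genes were higher. The groups did not overlap for Akt2 (-0.13 ± 0.09) and for Pik3r1, the regulatory subunit that binds IRS proteins (-0.09 ± 0.08). Of all genes 12.4% were lower without overlap. The further probe sets of Akt2 and Pik3r1 were higher in shTNC, by 0.085 and 0.16 for Akt2 and by between 0.046 and 0.30 for Pik3r1. Pik3r2 differed by 0.19 ± 0.13 and the catalytic subunit gene Pik3ca by 0.10 ± 0.09, both with overlap, and other probe sets of Pik3ca ranged from -0.10 to 0.37. Of 7 genes of the mTOR branch 4 were lower and 3 higher, also beside the 41.7% of all genes that were higher. At the brightest probe sets the groups were apart only for Tsc2, at -0.10 ± 0.08. Eif4ebp1 (-0.20 ± 0.12), Rictor (-0.11 ± 0.12) and Rptor (0.10 ± 0.11) overlapped, and each had a further probe set of the opposite sign.

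All 3 FOXO factors had higher values at their brightest probe sets, and 7 of their 9 probe sets were higher. Foxo4 read 10.44, 10.28 and 10.19 in shControl and 10.54, 10.55 and 10.50 in shTNC, a difference of 0.23 ± 0.09, although its other probe set had the opposite sign. Foxo1, the main FOXO factor of endothelium, differed by 0.16 ± 0.09 without overlap. Its other probe sets gave 0.16 ± 0.09 and -0.05 ± 0.10 with overlap and, at 1456529_at, 0.60 ± 0.12, where the levels were 10.11, 10.03 and 10.32 in shControl and 10.81, 10.58 and 10.86 in shTNC (limma adjusted p of 0.19). The probe sets of Foxo1 thus differ in size and in sign. Foxo3 differed by 0.07 ± 0.10 with overlap. Of 16 genes described as FOXO targets 11 were higher and 5 lower, with a median of 0.082, against 41.7% of all genes that were higher. Over their 37 probe sets 29 were higher, with a median of 0.099. These are repeated probe sets of the same 16 genes, and the 41.7% is for 1 probe set per gene. A share of all probe sets that were higher, to set beside this count or the 7 of 9 above, was not counted. The cyclin G2 gene Ccng2 read 10.71, 11.00 and 10.32 in shControl and 11.22, 11.31 and 11.03 in shTNC, a difference of 0.51 ± 0.17 without overlap, but its second probe set gave 0.11 ± 0.10 with overlap. Cited2, a transcriptional coregulator, differed by 0.34 ± 0.12 without overlap, and its second probe set by 0.14 ± 0.13 with overlap. The limma adjusted p-values at the brightest probe sets were 0.29 and 0.31. The catalase gene Cat differed by 0.22 ± 0.10 and the vascular FOXO target Angpt2 by -0.43 ± 0.20, both with overlap. Sesn1, which encodes the stress protein sestrin 1, was at 0.08 ± 0.09 at its brightest probe set but at 0.69 ± 0.10 at 1438931_s_at, with 9.64, 9.52 and 9.49 in shControl and 10.21, 10.37 and 10.14 in shTNC. There and at 1454699_at (0.39 ± 0.11) the groups did not overlap, and the limma adjusted p-values were 0.18 and 0.25. Sesn1 and the further Foxo1 probe set were singled out after their values were seen. Irs1 and Insr have themselves been described as FOXO targets, and Irs2 likewise. The part of FOXO factors in the values of these genes was not tested.

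**Figure D5:**
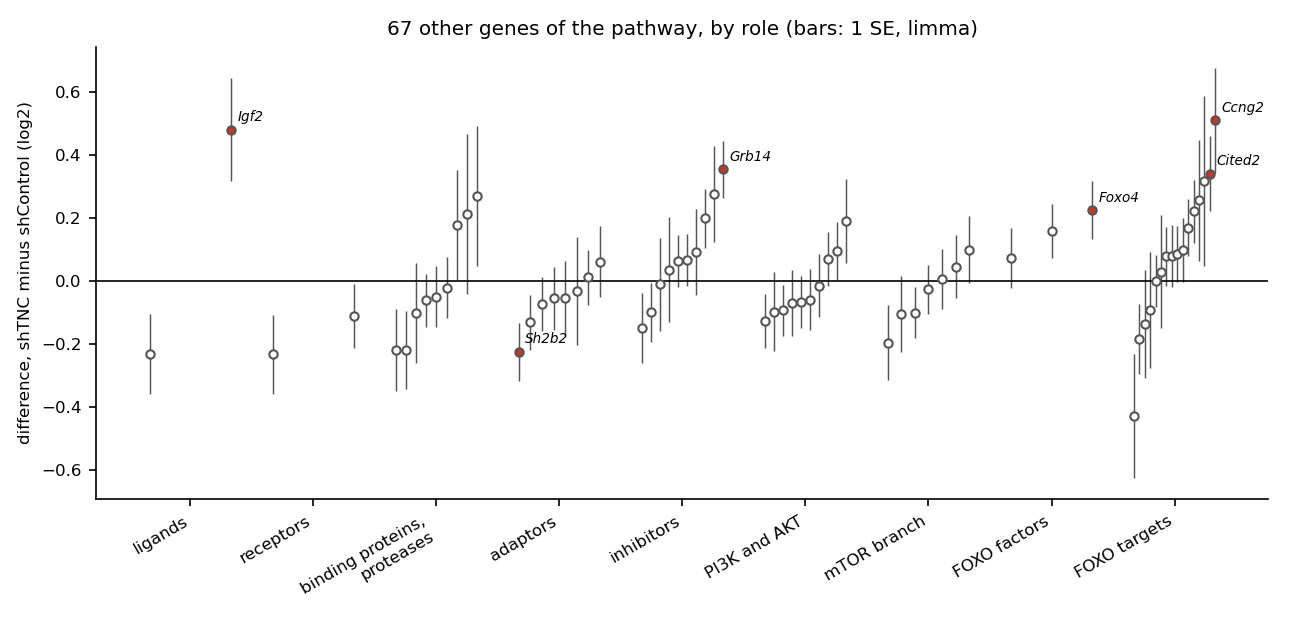
Difference, shTNC minus shControl (log2, y axis), of the 67 other pathway genes grouped by role, with 1 point per gene at its probe set with the highest mean and bars of 1 SE from limma. Genes at an unadjusted p under 0.05 are drawn as filled points and named, 5 of them above 0 and Sh2b2 below. At these probe sets the FOXO factors lie above 0, the 2 receptors below it and the other roles on both sides.

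By Pearson's r over the 6 arrays, the genes whose level was most like that of Irs1 among 13426 genes above background were Gm15666 (0.996), Arhgap31 (0.993) and Nkd2 (0.989), with 63 genes over 0.95. The 6 points fall into the 2 groups, so such an r takes in the difference between groups. With deviations from the group means the same genes gave 0.96, 0.91 and 0.89. These genes were picked for the highest r on the same arrays, so the latter values are no separate check. For Insr they were Aldh1a1, Ly6g6c and Spock2, for Igf1 Rpl27, Smg5 and Tescl, for Igfbp4 Cox4i2, Srgap3 and Dtd1, and for Igfbp5 Pcna, Cep57 and Dock6, all with r between 0.975 and 0.998. The numbers of genes with an r over 0.95 were 38 for Insr, 204 for Igf1, 54 for Igfbp4 and 20 for Igfbp5, and all are given as a description.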

How the data were processed

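RNA of the sorted lung ECs was hybridized to Affymetrix mouse expression arrays, 1 for each of the 3 shControl and 3 shTNC samples. Per the labels, 2 ng of RNA was labelled with biotin using a Pico kit. The authors normalized raw files in Chipster by robust multiarray averaging, and what they deposited are log2 levels of each probe set that are comparable between arrays. Once sorted, the values of 1 array lay within 0.07 of those of any other. Raw files and detection calls were not used here.

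Of 45101 probe sets, 34958 carried 1 gene symbol in the platform annotation, 932 several and 9211 none. All were fitted with lmFit and eBayes of limma 3.58.1 (R 4.3.3), with two-sided p-values adjusted over the whole array by the method of Benjamini and Hochberg and a threshold of 0.05. Where a gene has several probe sets, the one with the highest mean stands for it unless stated. The background level, 7.48, is the 95th percentile of the means of 43 probe sets for olfactory receptors, and 67.1% of the array lay above it. The steps were tested on simulated data. Promoters are from RefSeq, GRCm38.p6.

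The 10 genes, the pathway and marker lists, the motifs and the tests were chosen with earlier results of these data known. Named are all probe sets of the 10 genes and up to 4 genes of each pathway role. The latter were those with the smallest p among genes above background at the brightest probe set. For each gene whose groups did not overlap, the 3 genes most like it are named too. Markers of other cells, and genes and probe sets named beyond this, were chosen after their values were seen. Alternatives were quantile normalization, median centring, dropping dim probe sets, robust eBayes with an intensity trend, weights for the arrays, the replicate number as a block, the mean of a gene's probe sets and leaving out each array in turn. The number of arrays limits the precision.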

Additional observations from a re-analysis of the deposited data

How the results depend on the processing

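Of 28 probe sets, 24 kept the sign of their difference under every alternative run, as did 327 of 334 values. The values that turned came only from leaving out 1 array. Dropping dim probe sets, the intensity trend with robust eBayes and the replicate block leave each difference unchanged by construction. Quantile normalization and median centring act on arrays that were already closely matched. Those alternatives could hardly turn a sign, so the counts of kept signs rest mainly on leaving out arrays and on the array weights. Irs2 ranged from -0.13 to 0.017 without single arrays, with 0.017 when shControl replicate 1 was left out and 0.011 when shControl replicate 2 was. Igf1 ranged from -0.24 to 0.10 at 1434413_at, where leaving out replicate 1 of either group gave 0.10, and from -0.086 to 0.15 at 1419519_at, with -0.086 when shTNC replicate 3 and -0.049 when shControl replicate 2 was left out, and both probe sets are near background. Igfbp4 ranged from -0.014 to 0.093 at 1423757_x_at, lowest when shControl replicate 3 was left out. With an intensity trend and robust eBayes, 9 probe sets of the whole array passed an adjusted p of 0.05, Irs1 among them at 0.049. At an unadjusted p under 0.05 that fit gave 6 lower probe sets of the 10 genes and 8 higher pathway genes. The shares of all probe sets and genes at that level were not counted under the alternatives. The counts here and below therefore describe the alternatives and are no result about these genes. Leaving out single arrays gave 0 to 4 calls over all probe sets, with 2 without shControl replicate 1 and 4 without shControl replicate 3. It gave 2 to 4 lower and 2 to 5 higher probe sets of the 10 genes, the lowest higher count without shControl replicate 1 and 3 without shTNC replicate 3. Pathway genes counted 0 to 5 lower and 3 to 7 higher, with 5 lower without shControl replicate 3, 3 lower without shControl replicate 1, 0 lower without shTNC replicate 1, and 3 higher without shControl replicate 1, shTNC replicate 2 or shTNC replicate 3. An arm left with 1 array did not occur. The median over the 10 genes stayed between -0.051 and 0.025. Arrays that share a replicate number did not deviate together (r of -0.085, 0.041 and 0.10 across probe sets). With 3 arrays per group such values cannot show whether samples were paired, and the labels do not state a pairing. With the replicate number as a block, 2 pathway genes were lower and 4 higher, 4 probe sets of the 10 genes were lower and 4 higher, and 0 passed an adjusted p of 0.05. Without probe sets near background, the 2 dim Igf1 probe sets have no value.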
